A study of Mus musculus with 6 samples.

Results

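The 40 genes described here make up the core machinery of macroautophagy, the process in which a cell encloses part of its cytoplasm in a double membrane and delivers it to the lysosome. They were chosen by gene symbol, by a rule that uses no measured value, but with earlier results of these data known. All 40 were found among the 34745 genes of the expression table. RNA-seq had been performed on NOR-10 cells, an established mouse skeletal muscle fibroblast line. The study compared a control group of 3 libraries from cells given PBS with a D-gal group of 3 libraries from cells given D-galactose (D-gal), a sugar used to induce senescence, at 20 mg/mL for 3 days. Both groups were the same unmodified line, so each result describes 1 cell line in culture. The labels do not say whether the libraries of a group came from separate cultures, and the p-values therefore measure only the spread between these libraries. Library totals were 16876087 to 20830349 counts in the control group and 13759108 to 15157064 in the D-gal group, without overlap.

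Autophagy is started by the ULK1 kinase complex, which passes starvation and stress signals to a lipid kinase complex built around VPS34 and Beclin 1. Lipid scramblases and transfer proteins then supply membrane to the growing phagophore, and a pair of ubiquitin-like conjugation systems attaches proteins of the ATG8 family (LC3 and GABARAP) to it. Cargo receptors bind both ATG8 proteins and the cargo, such as ubiquitinated aggregates, mitochondria or endoplasmic reticulum, and are themselves degraded with it. Transcript levels do not measure this flux, because much of its control acts on the proteins.

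All 40 genes passed the filter on low counts and were tested with edgeR (quasi-likelihood test, p-values adjusted by Benjamini-Hochberg over all 13407 genes tested). At an adjusted p-value under 0.05, 11 of the 40 (27.5%) were called, beside 34.8% of all genes tested. Higher in D-gal were 7 members (17.5%, beside 16.9% of all genes), namely Uvrag, Atg12, Gabarapl2, Calcoco1, Pik3c3, Ulk2 and Tax1bp1. Lower in D-gal were 4 members (10%, beside 17.8% of all genes), namely Sqstm1, Optn, Gabarap and Ulk1. The members' shares were thus near or below the shares among all genes. In bulk RNA, fewer cells that express a gene and less RNA of it per cell cannot be told apart. The study's additional threshold, a log2 fold change of 1 or more in either direction, left Uvrag alone (1 of 40, beside 4.21% of all genes, of which 2.37% were higher and 1.83% lower).

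The differences were small. The median log2 fold change of the 40 members (D-gal against control) was 0.09, beside 0.0036 for all genes tested, and their median size was 0.135, beside 0.194. Among the 11342 genes whose mean count lay within the members' range, the median size was 0.173 and 36.8% were called. The fold changes ranged from -0.37 (Sqstm1) to 1.03 (Uvrag), with 28 above 0 and 12 below. The 95% intervals of all 29 members that were not called lay within a log2 change of 1 in either direction, and those of 25 lay within 0.5, the exceptions being Atg101, Atg4d, Atg10 and Bnip3l. The normalized counts of the groups (counts scaled to a common library size) did not overlap for 19 members, 13 of them higher and 6 lower in D-gal, beside 49.1% of all genes (24.1% higher and 25.0% lower). For a single gene, the exact two-sided permutation test over the 10 splits of 3 libraries against 3 cannot go below a p of 0.1, the value that these 19 members reached.

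**Figure D1:**
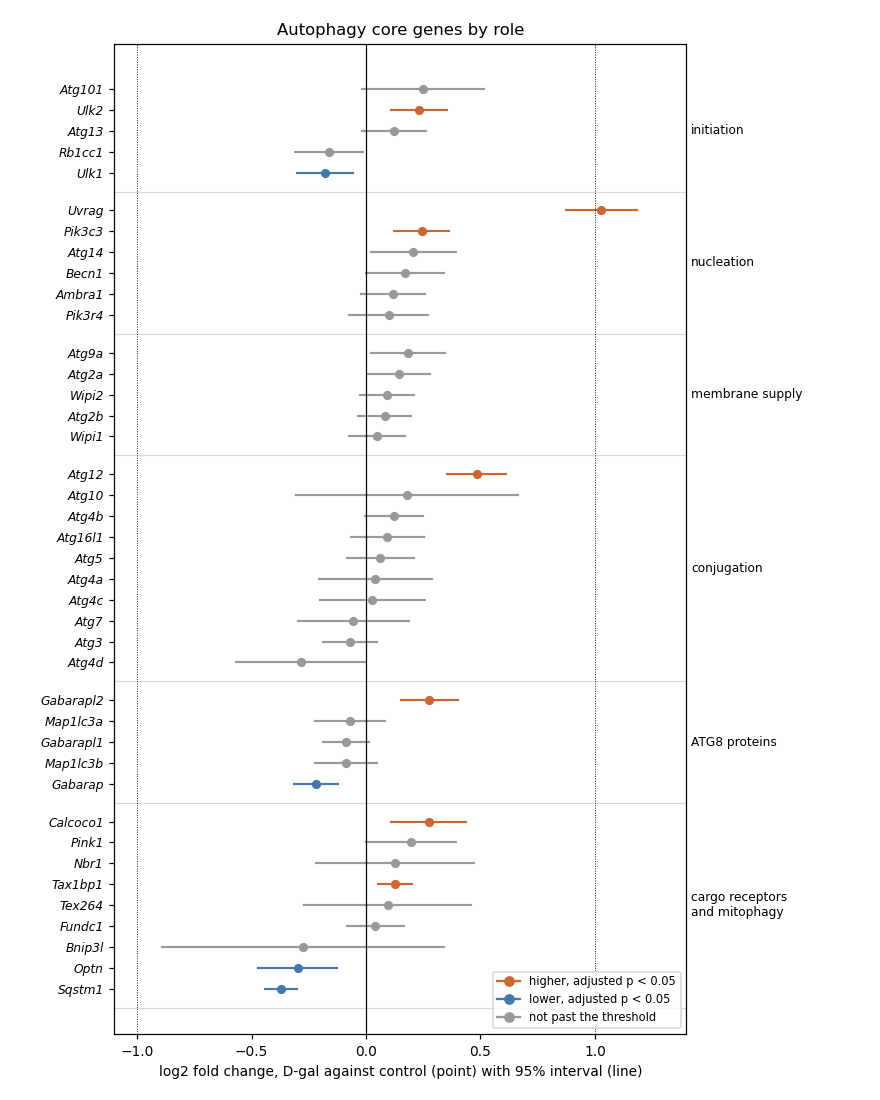
Log2 fold change, D-gal against control, of each of the 40 genes, grouped by role (point, with its 95% interval as a line, n = 3 libraries a group). Dotted lines mark a log2 fold change of 1 in size. The point of Uvrag at 1.03 stands beyond all others. All 11 points in the nucleation and membrane supply groups lie above 0, and of these only Uvrag and Pik3c3 were called. In the ATG8 group, 4 of 5 points lie below 0.

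**Figure D2:**
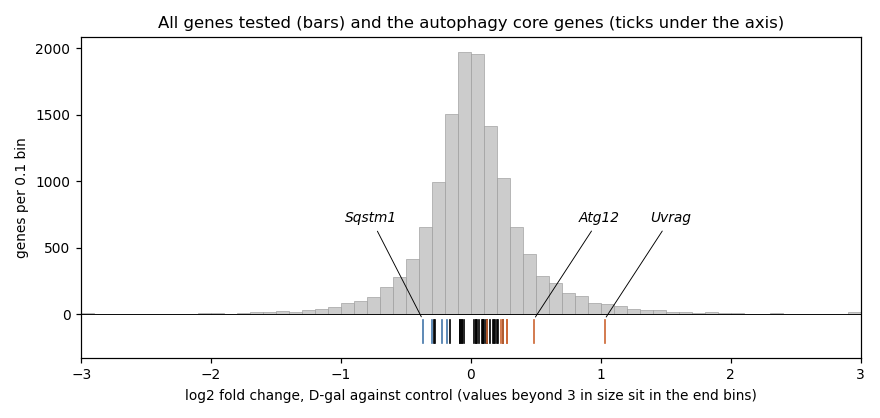
Histogram of the log2 fold changes of the 13407 genes tested (bars, genes per bin of 0.1), with each of the 40 members as a tick under the axis (orange, called higher, blue, called lower, black, not called). Most ticks sit in the centre of the histogram, and the ticks of Uvrag (1.03) and Sqstm1 (-0.37) are the outermost.

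The promoter sequences of the members were read in the RefSeq table for GRCm38.p6, as windows of 250 bases before to 50 bases after a transcription start. Such a window was given for 33 of the 40 members, and the 7 others (Rb1cc1, Becn1, Pik3c3, Atg12, Atg16l1, Map1lc3a and Bnip3l) are named only. Atg4a, Atg4c, Nbr1, Tax1bp1 and Tex264 had more than 1 window. Members were counted by gene, with a match in any window, whereas the shares of all windows are per window. The windows of the members at both ends of the range of changes, Uvrag and Sqstm1, are shown with those of Ulk2 and Atg3, which hold 1 or more of the 5 motifs searched on both strands. Each is written 5′ to 3′ on the strand of the gene, in lower case, with motif matches in capitals. The Uvrag window lies at chr7:99141095-99141394 (minus strand), that of Sqstm1 at chr11:50210771-50211070 (minus strand), that of Ulk2 at chr11:61855043-61855342 (minus strand) and that of Atg3 at chr16:45158579-45158878 (plus strand).
Uvrag: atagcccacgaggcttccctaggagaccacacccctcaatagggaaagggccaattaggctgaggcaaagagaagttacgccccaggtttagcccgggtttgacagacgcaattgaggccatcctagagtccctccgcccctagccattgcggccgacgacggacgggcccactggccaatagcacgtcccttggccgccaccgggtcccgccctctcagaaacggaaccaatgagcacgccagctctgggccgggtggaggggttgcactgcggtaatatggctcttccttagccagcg
Sqstm1: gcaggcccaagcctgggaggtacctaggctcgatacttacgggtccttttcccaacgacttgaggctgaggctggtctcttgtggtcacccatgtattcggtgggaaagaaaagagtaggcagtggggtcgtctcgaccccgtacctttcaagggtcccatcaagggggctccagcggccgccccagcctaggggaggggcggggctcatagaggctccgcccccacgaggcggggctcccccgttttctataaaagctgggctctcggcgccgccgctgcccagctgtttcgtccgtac
Ulk2: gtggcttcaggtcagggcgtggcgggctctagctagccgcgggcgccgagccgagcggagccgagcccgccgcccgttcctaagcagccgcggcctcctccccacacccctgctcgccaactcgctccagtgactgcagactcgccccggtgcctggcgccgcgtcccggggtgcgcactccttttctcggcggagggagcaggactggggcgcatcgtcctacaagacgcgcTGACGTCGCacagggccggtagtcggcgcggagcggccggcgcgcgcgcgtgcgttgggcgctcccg
Atg3: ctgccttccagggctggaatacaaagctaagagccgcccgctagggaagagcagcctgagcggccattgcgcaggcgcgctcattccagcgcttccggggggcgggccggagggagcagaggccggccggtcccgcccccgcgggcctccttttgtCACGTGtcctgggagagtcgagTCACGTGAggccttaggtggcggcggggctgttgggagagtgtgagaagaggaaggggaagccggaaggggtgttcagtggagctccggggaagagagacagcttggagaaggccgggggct

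The E-box CACGTG, which MiT/TFE factors such as TFEB can bind, was present in 7.15% of all 32851 windows. It was in those of 4 members (Atg3, Atg5, Atg7 and Atg14). The Atg7 window (chr6:114670846-114671145) lies inside the gene, which starts at 114643097. The E-box extension TCACGTGA, close to the CLEAR element of lysosomal genes and counted within the E-box matches, was in 0.974% of all windows. Of the members, Atg3 held it, beginning at position -72 (the transcription start is position 0). The antioxidant response motif TGACNNNGC, the core of which NRF2 binds, was in 12.4% of all windows and in those of Atg13, Map1lc3b, Tax1bp1 and Ulk2, in the last at position -17. The forkhead motif TGTTTAC, bound by FOXO factors, was in 3.65% of all windows and in that of no member. The letters TGGAAA of the NFAT core were in 21.4% of all windows and in those of Atg13, Atg2b and Gabarapl1. Of the called members with a window, Ulk2 and Tax1bp1 thus held a match to 1 of the motifs, and the other 7 held none in these 300 bases.

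In the initiation complex, the 2 kinases moved in opposite directions. Ulk1, the catalytic subunit that mTORC1 and AMPK phosphorylate, had normalized counts of 1273, 1275 and 1344 in control and 1188, 1168 and 1074 in D-gal. Every D-gal library was below every control library, and Ulk1 fell by 0.18 on the log2 scale (SE 0.053, adjusted p = 0.0310), a decrease of 11.8%. Ulk2, its close paralog, had 1376, 1368 and 1316 in control and 1488, 1688 and 1594 in D-gal. All D-gal libraries were above the controls, and Ulk2 rose by 0.23 (SE 0.053, adjusted p = 0.0113), or 17.5%. Per length, Ulk1 made up 39.0 to 41.3% of the summed FPKM of the pair (counts scaled to gene length and library total) in control and 31.7 to 35.5% in D-gal, so the share of Ulk2, already the larger, was larger still. The call on Ulk1 is the weakest of the 11, since it did not pass the threshold with DESeq2, with limma on FPKM or without any 1 of 5 of the 6 libraries (all but D-gal replicate 1).

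The other 3 subunits of the complex were not called. Of the 5 subunits, 2 (40%) were thus called, beside 34.8% of all genes. Rb1cc1 (FIP200), the scaffold, had normalized counts of 1244 to 1320 in control and 1035 to 1196 in D-gal, lower in every D-gal library (log2 fold change -0.16, adjusted p = 0.0859). Atg13, the adaptor that binds ULK1, had 408 to 431 in control and 450 to 462 in D-gal, higher in every D-gal library by a log2 fold change of 0.12 (adjusted p = 0.163). Atg101, which stabilizes ATG13, had a fitted difference of 0.25 (95% interval -0.02 to 0.52) and overlapping groups. This difference was 0.15 without D-gal replicate 2 and 0.35 without D-gal replicate 1, where it was called. The summed normalized count of the 5 subunits was 4648 to 4714 in control and 4670 to 4806 in D-gal.

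All 6 genes of the nucleation group had a positive log2 fold change. Of these, 2 (33.3%, beside 34.8% of all genes) were called, Uvrag and Pik3c3. Uvrag (ENSMUSG00000035354, chromosome 7, 98886743 to 99141144, minus strand) encodes the subunit that takes the place of ATG14 in the endosomal form of the VPS34 complex and acts in autophagosome and endosome maturation. Its normalized counts were 1185, 1128 and 1051 in control and 2090, 2429 and 2345 in D-gal, or 1121 ± 67.2 against 2288 ± 177 (SD, n = 3). The lowest D-gal library was well above the highest control library. The log2 fold change was 1.03 (SE 0.068, adjusted p = 3.0e-05), a 2.04-fold increase that ranks at position 159 by p among all genes tested. Without any 1 library it stayed between 0.98 and 1.09, and it was under 1 without control replicate 3 or without D-gal replicate 2, in which case no member met both thresholds. Of the exon bases of Uvrag, 17.6% overlap Gm45187 on the other strand, and 19.3% of the 31-base words of Uvrag occur in other annotated genes. That share of words was 16.4% for Sqstm1, 15.3% for Gabarapl2 and at most 2.43% for the other called members. It was highest for Atg4a (60.8%) and Becn1 (40.0%) among all 40. No counts were found for Gm45187, which may be missing from the expression table, so its level is not known.

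Pik3c3 encodes VPS34, the lipid kinase itself. Its normalized counts were 642, 651 and 610 in control and 755, 752 and 747 in D-gal. The groups were separate and the D-gal libraries nearly equal, with a log2 fold change of 0.24 (SE 0.052, adjusted p = 0.00844). Atg14, which directs the complex to the phagophore, had 337, 395 and 370 in control and 440, 407 and 424 in D-gal, with no overlap but an adjusted p of 0.0824 (log2 fold change 0.21). Becn1 (Beclin 1) had 1094 to 1145 in control and 1154 to 1415 in D-gal (0.17, adjusted p = 0.114). Its log2 fold change was 0.083 without D-gal replicate 2 and 0.23 without D-gal replicate 3, where it was called. Cntd1, with 57 counts in all libraries together, overlaps 43.9% of the exon bases of Becn1 on the other strand. The membrane anchor Pik3r4 (VPS15) and Ambra1, a regulator of Beclin 1, had overlapping groups and log2 fold changes of 0.10 and 0.12. The sum over the 6 genes was 4753 ± 112 normalized counts in control and 6349 ± 230 in D-gal (SD, n = 3), of which Uvrag accounted for 1121 and 2288.

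**Figure D3:**
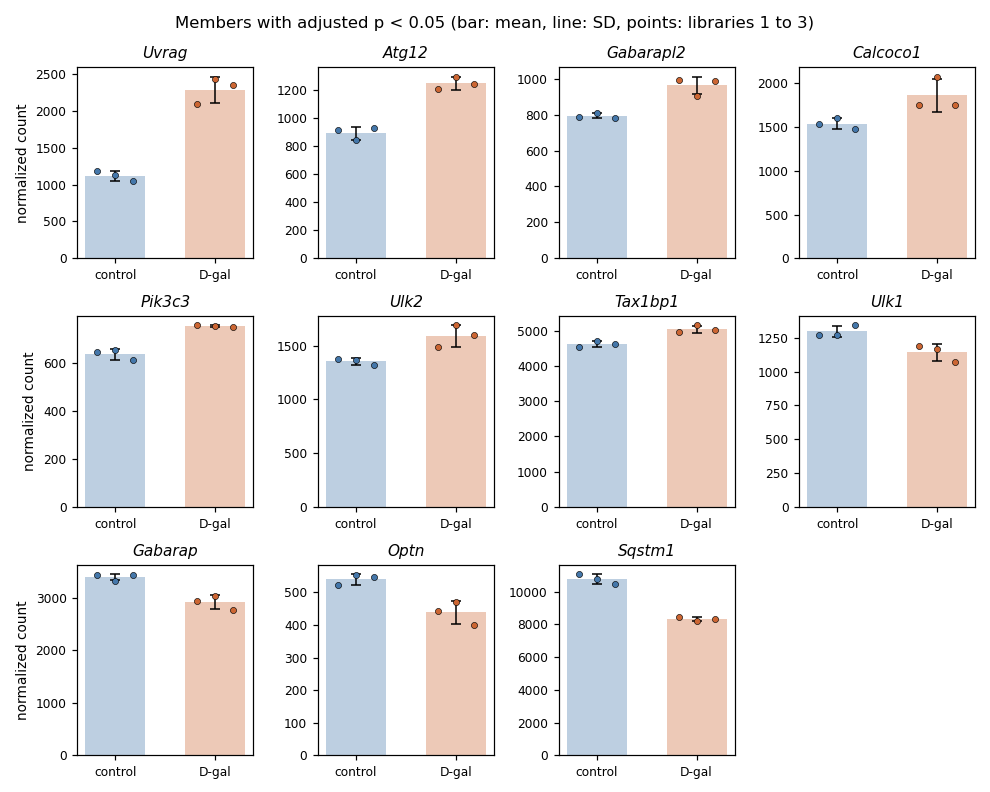
Normalized counts of the 11 members with an adjusted p-value under 0.05, in order of their log2 fold change. Bars are group means from 0, lines are the SD and points are the 3 libraries of each group, and in all 11 panels the points of the groups do not overlap.

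None of the 5 genes that supply membrane was called, beside 34.8% of all genes. All 5 had a log2 fold change above 0, between 0.05 and 0.18. Atg9a, the scramblase of the vesicles that seed the phagophore, had normalized counts of 913, 1066 and 1014 in control and 1187, 1065 and 1144 in D-gal. Its groups overlapped by a narrow margin, with the lowest D-gal library just under the highest control library, and the log2 fold change was 0.18 (SE 0.070, adjusted p = 0.0791). Atg2a, a lipid transfer protein, had 970, 1067 and 1003 against 1076, 1189 and 1093. Here the D-gal libraries were all higher, by a log2 fold change of 0.14 (SE 0.059, adjusted p = 0.0978). Its paralog Atg2b (0.08) and Wipi1 and Wipi2 (0.05 and 0.09), which read the lipid made by VPS34, had overlapping groups. A same-strand transcript, Gm29253, shares 31.8% of the exon bases of Atg9a and had 235 counts against its 6340 over all libraries.

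Of the 10 conjugation genes, 1 (10%) was called, beside 34.8% of all genes. Atg12 (ENSMUSG00000032905, chromosome 18, 46732417 to 46741579, minus strand), the ubiquitin-like protein that is joined to ATG5, had normalized counts of 912, 840 and 927 in control and 1205, 1296 and 1242 in D-gal. The groups lay far apart relative to their spread, at 893 ± 46.2 and 1248 ± 45.7 (SD, n = 3). Atg12 rose by 0.48 on the log2 scale (SE 0.056, adjusted p = 4.2e-04), or by 39.8%, the second largest change among the members, and remained called under each alternative run at the same threshold.

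None of the genes whose products act with ATG12 was called. Atg5, its conjugation target, had 713 to 770 normalized counts in control and 722 to 809 in D-gal (log2 fold change 0.06, 95% interval -0.08 to 0.21). Atg16l1, which brings the conjugate to the membrane, stood at 0.09, and Atg7 and Atg10, the E1-like and E2-like enzymes of the system, at -0.06 and 0.18. Atg10 is the least abundant of the 40, with 33 to 53 counts a library, and its 95% interval of -0.31 to 0.66 is correspondingly wide. Atg3, the E2-like enzyme that loads ATG8 proteins onto lipid and the member with the TCACGTGA match, had 920 to 984 in control and 875 to 927 in D-gal (-0.07, adjusted p = 0.331).

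The 4 ATG4 proteases, which trim ATG8 proteins and take them off membranes, were not called. Atg4d had normalized counts of 148, 153 and 171 in control and 136, 139 and 112 in D-gal. Every D-gal library was lower, but the adjusted p was 0.111 (log2 fold change -0.28, SE 0.123). On the other strand, Kri1, with 4405 counts over all libraries against 868 for Atg4d, shares 19.3% of the exon bases of Atg4d, and the strand setting of the counting is not given in the sources used here. Atg4b, the main protease of the family, had 757 to 836 in control and 870 to 882 in D-gal, without overlap (0.12, adjusted p = 0.122). Atg4a and Atg4c had fitted differences of 0.04 and 0.03, and 60.8% of the 31-base words of Atg4a occur in other annotated genes.

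Among the 5 ATG8 proteins, 1 rose (20%, beside 16.9% of all genes), 1 fell (20%, beside 17.8%) and 3 were not called. Gabarap (ENSMUSG00000018567, chromosome 11, 69991143 to 69994951, plus strand) had normalized counts of 3427, 3327 and 3437 in control and 2937, 3040 and 2768 in D-gal. It was lower in every D-gal library and fell by 0.22 on the log2 scale (SE 0.042, adjusted p = 0.00485), a decrease of 14.2%. Gabarapl2 (GATE-16) had 790, 812 and 783 in control and 993, 906 and 990 in D-gal. It was higher in every D-gal library and rose by 0.28 (SE 0.055, adjusted p = 0.00586), or 21.2%. Gabarapl1 had 1653 to 1789 in control and 1607 to 1669 in D-gal (-0.09, adjusted p = 0.163). The LC3 genes, Map1lc3a (822 to 881 against 751 to 869) and Map1lc3b (625 to 650 against 579 to 633), had log2 fold changes of -0.07 and -0.09 with overlapping groups and 95% intervals of -0.22 to 0.08 and -0.22 to 0.05.

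As a share of the summed FPKM of the 5 genes, Gabarap made up 44.7 to 46.7% in control and 40.4 to 44.0% in D-gal, and Gabarapl2 11.8 to 12.3% and 14.8 to 16.3%. The shares of both were separate between the groups. Those of Gabarapl1 (23.5 to 25.0% and 24.0 to 25.4%), Map1lc3a (14.5 to 15.6% and 14.3 to 16.1%) and Map1lc3b (2.64 to 2.79% and 2.64 to 2.81%) overlapped. With the length of the merged exons in place of the deposited gene length, the share of Gabarap was 46.7 to 48.8% and 42.8 to 46.4%, and that of Gabarapl2 8.70 to 9.04% and 11.0 to 12.2%, so both remained separate.

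Among the 5 soluble cargo receptors, 2 fell (40%, beside 17.8% of all genes), 2 rose (40%, beside 16.9%) and 1 was not called. Sqstm1 (p62; ENSMUSG00000015837, chromosome 11, 50199366 to 50210827, minus strand) links ubiquitinated cargo to LC3 and is degraded with it. Its normalized counts were 11083, 10780 and 10459 in control and 8421, 8219 and 8352 in D-gal, or 10774 ± 312 against 8331 ± 103 (SD, n = 3). The groups were far apart. Sqstm1 fell by 0.37 on the log2 scale (SE 0.031, adjusted p = 8.6e-05), a decrease of 22.7%, and with rank 323 by p among all genes it had the second smallest p of the members. Mrnip, which had 560 counts in all libraries together against 58248 for Sqstm1, overlaps 17.3% of its exon bases on the other strand.

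Optn (optineurin), a receptor in mitophagy and in the clearance of bacteria, had normalized counts of 521, 553 and 546 in control and 443, 472 and 401 in D-gal. It was lower in every D-gal library and fell by 0.30 (SE 0.075, adjusted p = 0.0168). Tax1bp1, a ubiquitin-binding receptor, had 4530, 4716 and 4631 in control and 4964, 5155 and 5011 in D-gal. With this small spread a rise of 0.12 was called (SE 0.032, adjusted p = 0.0187). Calcoco1, a receptor for the endoplasmic reticulum and Golgi, had 1529, 1606 and 1481 in control and 1750, 2077 and 1756 in D-gal and rose by 0.27 (SE 0.071, adjusted p = 0.0198). The calls on Tax1bp1 and Calcoco1 were lost without control replicate 1 or control replicate 3, that on Tax1bp1 also without D-gal replicate 2, and that on Optn without control replicate 2.

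Sqstm1 made up 58.6 to 60.5% of the summed FPKM of the 5 soluble receptors in control and 49.2 to 52.8% in D-gal. The shares of Tax1bp1 (15.6 to 16.9% and at least 19.1%) and Calcoco1 (11.7 to 12.2% and 14.9 to 17.4%) were higher in each D-gal library than in any control. Computed on merged exons, the share of Sqstm1 was 71.4 to 73.3% in control and 63.7 to 67.1% in D-gal, so that the most abundant receptor took a smaller share on both scales. The fifth receptor, Nbr1, a large relative of p62, had 2487, 2659 and 1853 in control and 2845, 2710 and 2086 in D-gal. Control replicate 3 and D-gal replicate 3 were the low libraries in their groups, and the log2 fold change of 0.13 was not called (SE 0.150, adjusted p = 0.560).

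None of the 4 receptors and regulators on mitochondria and the endoplasmic reticulum was called. Of all 9 cargo receptor and mitophagy genes, 4 (44.4%) were thus called, beside 34.8% of all genes. Pink1, the kinase that marks damaged mitochondria, had normalized counts of 423, 417 and 406 in control and 432, 531 and 465 in D-gal, all higher, with a log2 fold change of 0.20 (adjusted p = 0.111). Fundc1, a mitophagy receptor of the outer membrane, differed by 0.04 (95% interval -0.09 to 0.17). Bnip3l (NIX), the receptor used when red blood cells lose their mitochondria, had 1031, 1102 and 1068 in control and 1140, 1030 and 471 in D-gal. A single library, D-gal replicate 3, was low, and the log2 fold change of -0.28 (adjusted p = 0.468) became 0.02 without it. Tex264, a receptor for the endoplasmic reticulum, had 874, 990 and 769 in control and 756, 885 and 1174 in D-gal. Its D-gal libraries spanned more than the whole control range, and the log2 fold change was 0.09 (adjusted p = 0.688).

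**Figure D4:**
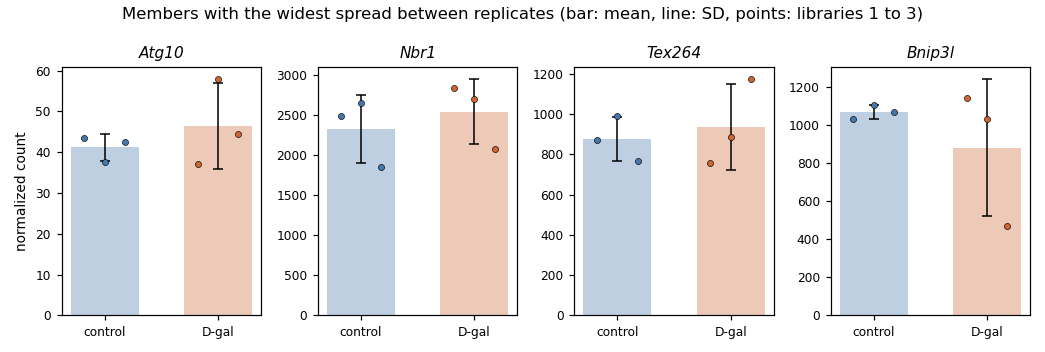
Normalized counts of the 4 members with a mean coefficient of variation above 15% between replicates (bars, group means from 0, lines, SD, points, libraries). The low point of Bnip3l at 471 is D-gal replicate 3, and the groups overlap in all 4 panels.

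The replicates of most members were close together. The coefficient of variation between replicates, averaged over both groups, had a median of 5.08% over the members and 6.80% over all genes tested. It was above 15% for 4 members, Atg10 (15.2%), Nbr1 (17.0%), Tex264 (17.7%) and Bnip3l (22.0%). None of these 4 was called, and their 95% intervals were wide, for example -0.89 to 0.34 for Bnip3l.

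The 40 genes spanned a wide range of levels per length. The mean deposited FPKM in the control libraries ran from 1.51 for Atg10 to 90.4 for Sqstm1, with a median of 7.98. Sqstm1 (87.5 to 93.2 FPKM) and Gabarap (58.8 to 60.7 FPKM) came first and second and did not overlap, and Gabarapl1 (32.0 ± 1.3 FPKM) and Tax1bp1 (24.5 ± 0.47 FPKM) followed. In the D-gal libraries Sqstm1 (70.8 to 72.1 FPKM) and Gabarap (50.1 to 55.2 FPKM) were still first and second, and Uvrag, seventh in control at 17.9 to 20.3 FPKM, stood at 36.5 to 42.7 FPKM. The gene length behind the deposited values was 0.323 to 2.14 times that of the merged exons in the annotation. On merged exons the control level of Uvrag was 7.30 instead of 19.2 and that of Atg12 6.81 instead of 21.1, whereas Map1lc3a stood at 42.1 instead of 19.6, and Sqstm1 and Gabarap remained first and second. The order of levels in the middle of the range thus depended on the length used.

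**Figure D5:**
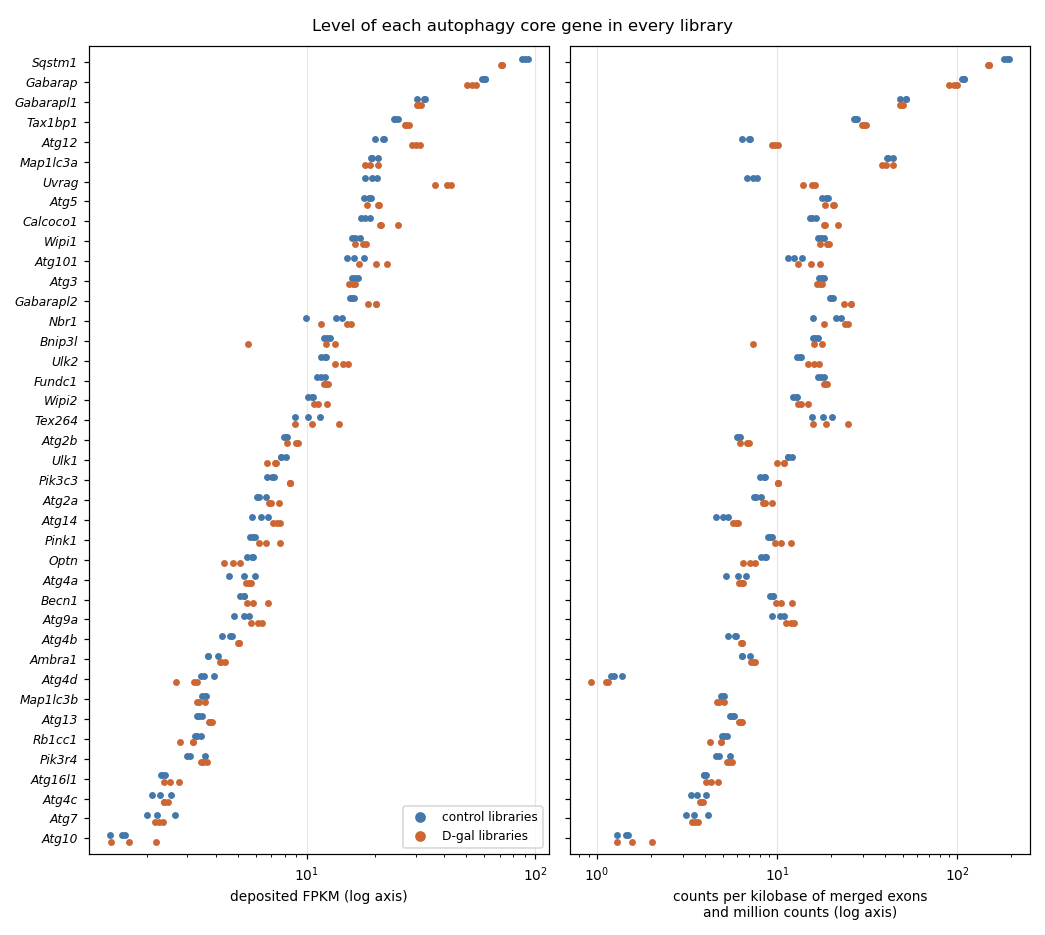
Level of each of the 40 genes in each of the 6 libraries, as deposited FPKM (left) and as counts scaled to the length of merged exons and the library total (right), on log axes, ordered by the control mean of the left panel. Sqstm1 and Gabarap lead on both scales, and Uvrag shows the widest separation between the groups.

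Members were on 18 chromosomes, at most 6 of them on 1 chromosome (chromosome 11). The closest pair was Atg13 and Ambra1, 19557 bp apart on chromosome 2, with log2 fold changes of 0.12 each, and the next, Becn1 and Nbr1, 249862 bp apart on chromosome 11, with 0.17 and 0.13. Positions are those of the deposited table, and for 32 of the 40 members they equal those in GENCODE release M21 (GRCm38).

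Of a list of 76 further autophagy genes, 73 were found and 71 were tested. At an adjusted p-value under 0.05, 18 of these (25.4%) were called, 11 higher and 7 lower, a share that is likewise below the 34.8% of all genes, and their median log2 fold change was -0.01. In the control by AMPK and mTORC1, 3 of 21 genes rose (14.3%, beside 16.9% of all genes) and 3 fell (14.3%, beside 17.8%). Sesn1, a p53 target that restrains mTORC1, had normalized counts of 598, 672 and 657 in control and 1178, 1499 and 1500 in D-gal, was the only one of these 71 genes past both thresholds and rose by 1.12 (SE 0.10, adjusted p = 1.3e-04). Deptor, an inhibitor within mTOR complexes, fell by 0.44 (SE 0.037, adjusted p = 9.3e-05). Of the 6 transcription factors of the pathway, only Foxo3 was called (16.7%, beside 34.8% of all genes), with a rise of 0.27 (SE 0.035, adjusted p = 7.9e-04). The largest log2 fold change of the 6 was 0.56, in a factor that was not called. Tfeb and Tfe3, which drive lysosomal genes, had log2 fold changes of 0.04 and 0.03 and were not called.

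Among the 13 accessory genes of the phagophore, 2 rose and 3 fell. Dapk1, a kinase that phosphorylates Beclin 1, had normalized counts of 1599, 1621 and 1505 in control and 2611, 3229 and 3141 in D-gal and rose by 0.93 (SE 0.079, adjusted p = 9.7e-05). Atg16l2, a paralog of Atg16l1, rose by 0.56 (SE 0.079, adjusted p = 0.00123). Of the 15 genes that act in fusion with the lysosome, 3 rose (20%) and 1 fell (6.67%). Of the 16 further receptors tested, 2 rose (12.5%) and 0 fell. Wdfy3 (ALFY), a scaffold for aggregates, was among those that rose, by 0.23 (SE 0.033, adjusted p = 0.00128). Of the 18 further receptors found, 16 passed the filter on low counts, and Calcoco2 (0 to 3 counts a library) was among those that did not.

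Cell type markers were measured beside these genes. Of 10 fibroblast markers 9 were tested. In D-gal, 6 were called lower (66.7%, beside 17.8% of all genes) and 1 was called higher (11.1%, beside 16.9%). The summed normalized count of the 10 markers was 127850 to 131117 in control and 83919 to 89365 in D-gal. Per length the gap was narrower. The summed FPKM was 1444, 1378 and 1448 in control replicates 1 to 3 and 1334, 974 and 1084 in D-gal replicates 1 to 3. Lum, a fibroblast proteoglycan, had no more than 1 count in any library. Pax7, Myf5, Myod1, Adipoq, Cidec, Lep and Epcam were at 0 in every library, which allows up to 3 counts each (counting error only). The summed normalized counts of other cell types' markers were low, and 3 of these sums were lower in every D-gal library than in any control. Myogenic markers summed to 89.8 to 102 in control and 61.7 to 67.5 in D-gal, endothelial markers to 75.9 to 90.6 and 51.8 to 56.8, and epithelial markers, mostly Cdh1, to 118 to 142 and 29.5 to 43.8. Macrophage markers summed to 145, 40.0 and 17.2 in control replicates 1 to 3 and to 20.2 to 28.4 in D-gal, so control replicate 1 stood apart, and adipocyte markers to at most 1. The part of these shifts and of the lower D-gal library totals in the members' differences was not tested, except that all 11 members remained called after counts had been thinned to the smallest total.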

How the data were processed

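Per the labels, libraries were made from total RNA of NOR-10 cells with a universal RNA-seq kit, whereas the methods name a small RNA kit. The authors trimmed the reads, aligned them with HISAT2 (version 2.0.4, from the submitters' processing notes) and deposited a count of reads per gene and library without normalization. The counting tool, strand setting, genome build and annotation are not given in the sources used here. The deposited FPKM values are these counts scaled to gene length and library total, as the authors computed them. All sample columns were matched to samples by name.

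Counts were tested with edgeR (version 4.0.16, R 4.3.3), using TMM factors, the filter filterByExpr and its quasi-likelihood test, adjusted by Benjamini-Hochberg, 3 libraries against 3 without covariates. Normalized counts were scaled to the mean of the TMM-adjusted library sizes. The biological coefficient of variation was 9.47%. Chi-square statistics between replicates (6.00 to 9.42 per degree of freedom) exceeded sampling noise, so no library was treated as a second deposit of another. Same-numbered libraries did not deviate together (r between -0.01 and 0.03 across genes). FPKM was used for levels and shares, and for limma (version 3.58.1) as an alternative. DESeq2 (version 1.42.0) was another. The procedure was tested on simulated data with log2 changes of 1 or more in size. Smaller changes, such as those of most called members, were not simulated.

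The rule for the members uses gene symbols only, but the members and the lists of other genes and markers were chosen with earlier results of these data known. Every member is named, with full statistics where the adjusted p-value is under 0.05 and the log2 fold change at least 0.4 in size and for the 2 smallest p in each role. Of the other autophagy genes, those past both thresholds of the study and the 6 with the smallest p are named, and Tfeb, Tfe3 and Calcoco2 were named after their values were seen. GENCODE M21 and RefSeq GRCm38.p6 served for overlaps, merged exons and promoters.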

Additional observations from a re-analysis of the deposited data

How the results depend on the processing

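The count of 11 called members (7 higher, 4 lower) was 8 to 12 without any 1 library (5 to 8 higher, 2 to 4 lower) and 6 at an adjusted p-value under 0.01 (4 higher, 2 lower). Uvrag passed both thresholds except without control replicate 3 or D-gal replicate 2, so that count was 0 to 1. RLE size factors, no filter on low counts, a minimum of 10 counts in every library and thinning to the smallest total each kept all 11 calls, DESeq2 and both limma fits kept 10, losing Ulk1, and the limma fits gained Atg14. Labels give the groups the same replicate numbers but do not say whether these pair the libraries. The replicate block kept 10 of the 11 calls, again without Ulk1. Among all genes, 2729 were called at 0.01 (1259 higher, 1470 lower), and the 564 past both thresholds became 120 with limma on log2(FPKM + 1). Of the other autophagy genes, 10 were called at 0.01 and 11 to 16 without any 1 library. Their 7 lower calls became 4 with either limma fit, 2 at 0.01 and 2 to 6 without any 1 library. The members' median log2 fold change was 0.12 with limma on log2(FPKM + 0.1) and 0.071 to 0.11 without any 1 library, and their median control level was 9.26 on merged exons. Without any 1 library, the log2 fold changes of 7 members that were not called crossed 0, at -0.051 to 0.14 for Atg4a and -0.016 to 0.25 for Nbr1 (below 0 without control replicate 3), -0.036 to 0.10 for Atg4c (below 0 without control replicate 2, and -0.00049 after thinning), -0.14 to 0.061 for Atg7 (above 0 without control replicate 1), -0.012 to 0.32 for Atg10 (below 0 without D-gal replicate 2), and -0.50 to 0.023 for Bnip3l and -0.099 to 0.23 for Tex264 (reversed without D-gal replicate 3). Fewer samples enter the fits without a library. The cause of the other changes was not tested. The largest shift of the median of all genes from the main fit was 0.032, with limma on log2(FPKM + 0.1). That fit called 2557 of all genes higher and 1977 lower, beside 2268 and 2393 in the main fit.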
